A study of Mus musculus with 45 samples.

Results

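The second day of limb bud culture under 5 µM bisphenol AF (BPAF) is described here by setting 5 libraries taken at 48 h against 5 libraries taken at 24 h. All 10 were from cultures that held 5 µM BPAF, and they are 10 of the 45 libraries of the study. They were chosen by the dose and time in their labels, not by any measured value. BPAF is an analog of the plastics monomer bisphenol A that carries fluorinated methyl groups. Forelimb buds were taken from CD1 mouse embryos, an outbred strain, at gestation day 13. The forelimbs of each embryo were combined, so a library is whole limb tissue with its muscle, vessels and skin. Per the labels, limbs of both sexes were cultured together. By Xist and Y-linked reads, all 10 libraries at 5 µM held both sexes, while 5 of the DMSO and 1 µM libraries at 24 or 48 h held 1 sex. Each bottle held BGJb medium diluted with a salt solution, with BPAF or with its solvent dimethyl sulfoxide (DMSO) and was kept for 3, 24 or 48 h. For comparison, the same interval was measured in DMSO cultures and in 1 µM BPAF cultures, with 5 libraries per dose and time. The labels name no mutation or transgene in any group. The labels do not say whether replicates came from separate litters or days, so the p-values measure the spread between these libraries, part of which may be technical.

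In the embryonic limb, long bones form on a cartilage template: chondrocytes lay down collagen II and aggrecan, then enlarge (hypertrophy), switch to collagen X and are followed by osteoblasts that deposit mineralizing matrix. Limb muscle has another origin. Its progenitors migrate in from the somites, are kept as a dividing pool by the transcription factor Pax7, and fuse into fibres that build sarcomeres under MyoD and myogenin. Patterning genes of the early bud, among them the HOX clusters, are known to decline as these tissues differentiate.

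The 10 libraries held 14901842 to 20800285 counted reads. Levels below are CPM, read counts scaled to library size, after TMM scaling, which equalizes the bulk of genes between libraries. CPM does not correct for gene length, so levels are compared between libraries and not between genes. The forelimb regulator Tbx5 was at 293 ± 14.6 CPM at 24 h and the limb mesenchyme factor Prrx1 at 466 ± 55.3 CPM (SD, n = 5), so the defining genes of the labelled tissue were present. The read share of haemoglobin transcripts, made by red blood cells, was 0.153% ± 0.0589 at 24 h and 0.0540% ± 0.00843 at 48 h (SD, n = 5). That difference had a two-sided exact permutation p of 0.00794, the smallest that 5 against 5 libraries allow, and 0.0317 after adjustment over 4 library measures. Mitochondrial reads (1.62% against 1.67%), Y-linked reads and read totals did not pass the same exact permutation test (p = 0.429, 0.722 and 0.722). The library 5 µM 24 h replicate 5 had the most haemoglobin reads, 0.253%. Because these are bulk samples, fewer cells of a type and less RNA per cell cannot be told apart.

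Upstream sequences are shown for the collagen X gene and 3 bone matrix genes, whose rises are described below, and for 2 muscle myosin genes. The genes were chosen with their values known. The sequences are RefSeq's for GRCm38.p6, the assembly called mm10 in the files. Each is the stretch before the RefSeq start, 250 bases long or cut where the deposited gene begins, and reads 5′ to 3′ on the gene's strand. Col10a1 lies at chr10:34389731-34389980 (+), Ibsp at chr5:104299037-104299170 (+), Spp1 at chr5:104434861-104435110 (+) and Alpl at chr4:137796385-137796634 (-). Capitals mark the RUNX core TGTGGT on either strand, the letters bound by the osteoblast factor Runx2.
Col10a1: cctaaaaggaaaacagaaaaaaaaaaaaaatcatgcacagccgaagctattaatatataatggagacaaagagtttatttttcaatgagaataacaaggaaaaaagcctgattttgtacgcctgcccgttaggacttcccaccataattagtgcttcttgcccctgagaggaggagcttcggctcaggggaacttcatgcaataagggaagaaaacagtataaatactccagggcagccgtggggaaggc
Ibsp: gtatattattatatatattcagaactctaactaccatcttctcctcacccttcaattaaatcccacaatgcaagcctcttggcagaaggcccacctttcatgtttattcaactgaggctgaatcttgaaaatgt
Spp1: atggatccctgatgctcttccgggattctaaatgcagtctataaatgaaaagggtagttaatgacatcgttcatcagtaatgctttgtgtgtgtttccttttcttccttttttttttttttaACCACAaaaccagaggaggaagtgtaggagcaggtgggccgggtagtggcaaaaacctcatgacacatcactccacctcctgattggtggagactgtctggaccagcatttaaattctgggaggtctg
Alpl: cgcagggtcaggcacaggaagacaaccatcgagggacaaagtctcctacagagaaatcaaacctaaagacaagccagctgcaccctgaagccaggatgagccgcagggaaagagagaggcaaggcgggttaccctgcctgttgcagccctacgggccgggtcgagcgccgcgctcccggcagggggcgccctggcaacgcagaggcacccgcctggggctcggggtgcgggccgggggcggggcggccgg
The core was found only in Spp1 among these 4, on the opposite strand, beginning 128 bases before the start. Of all 32851 promoters in the table, 14.05% hold it in the same 250 bases. For the myosins, at chr2:155610993-155611211 (+) and chr11:67078050-67078299 (+), capitals mark CANNTG, which is its own reverse complement. These are the general E-box letters, of which MyoD and other factors prefer different forms, and the search did not tell the forms apart.
Myh7b: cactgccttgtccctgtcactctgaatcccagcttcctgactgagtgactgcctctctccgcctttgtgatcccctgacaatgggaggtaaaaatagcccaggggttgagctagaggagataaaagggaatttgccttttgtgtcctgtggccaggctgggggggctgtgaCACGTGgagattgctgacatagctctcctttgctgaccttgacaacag
Myh3: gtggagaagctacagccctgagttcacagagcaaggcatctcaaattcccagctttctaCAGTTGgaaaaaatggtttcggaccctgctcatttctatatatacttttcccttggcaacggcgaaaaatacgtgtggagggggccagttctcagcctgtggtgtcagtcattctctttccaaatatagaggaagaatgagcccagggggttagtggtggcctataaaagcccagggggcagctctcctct
Each of the myosin windows held 1 match, beginning 79 bases before the start in Myh7b and 191 bases before it in Myh3. Of all promoters, 66.22% hold such letters, so a match is common, and it does not show that a factor binds.

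Between 24 and 48 h at 5 µM, 2263 of 16316 genes tested (13.9%) changed at a Benjamini-Hochberg adjusted p under 0.05 in edgeR's quasi-likelihood test. Of these, 1367 rose (8.38% of those tested) and 896 fell (5.49%). At least 2-fold changes were fewer: 289 genes rose (1.77%) and 70 fell (0.429%) that far. The median log2 fold change over all genes was -0.02. Scaled by library totals alone, the calls were 2486, of which 1122 rose and 1364 fell, so the excess of rises depends on the scaling. The count was lowest without 5 µM 48 h replicate 3 (1710) and highest without 5 µM 24 h replicate 5 (3026). Below, log2 fold changes are 48 h over 24 h with their standard error (SE), and p-values are adjusted over all genes.

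Cartilage matrix genes were higher at 48 h. Of 29 chondrocyte genes tested, 21 rose and 0 fell, with a median log2 fold change of 0.71. Col2a1, the main cartilage collagen, read 6905, 6872, 6423, 6956 and 6765 CPM in the 5 libraries at 24 h and 13181, 11024, 13318, 12001 and 13737 CPM at 48 h. Every 48 h library was above every 24 h library, and the log2 fold change was 0.87 ± 0.06 (adjusted p = 4.01e-07). Acan, the large aggregating proteoglycan, went from 458, 446, 436, 478 and 420.0 CPM to 945, 865, 1009, 919 and 1001 CPM. It also did not overlap between times, and it changed by 1.05 ± 0.06 (adjusted p = 4.57e-08). Comp, a cartilage and tendon matrix protein, rose by 1.82 ± 0.10, from a mean of 135 ± 9.68 to 487 ± 79.5 CPM (SD, n = 5). Cnmd, which encodes the vessel-inhibiting chondromodulin, rose by 1.07 ± 0.07 and the collagen XI gene Col11a2 by 0.94 ± 0.07. Sox9, the transcription factor that sets the chondrocyte fate, read 449.5 ± 27.4 and 423 ± 41 CPM, a log2 difference of -0.11 ± 0.07 that did not pass the test (adjusted p = 0.349).

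Hypertrophic cartilage genes rose as well, and Col10a1 had the largest fold of the skeletal genes named here. Of 21 genes in that list, 11 rose and none fell. Col10a1, the collagen made by hypertrophic chondrocytes, read 7.84, 5.71, 6.18, 11.3 and 6.56 CPM at 24 h and 175, 62.9, 160.2, 56.9 and 41.4 CPM at 48 h. The lowest 48 h library was well above the highest 24 h library, although replicates 1 and 3 at 48 h stood above the other 3. Its log2 fold change was 3.70 ± 0.38 (adjusted p = 9.65e-06). Levels in DMSO spanned 16.8 to 30.3 CPM at 24 h and 119 to 301 CPM at 48 h, a log2 change of 3.23 ± 0.23. The difference between those changes was 0.48 ± 0.48 and did not pass the test. Panx3, a pannexin channel of hypertrophic chondrocytes and osteoblasts, rose by 1.22 ± 0.10, and the ligand gene Bmp6 by 0.90 ± 0.12. Mmp13, the collagenase that clears hypertrophic matrix, was scarce, with 2.5, 1.06, 0.648, 0.66 and 0.965 CPM at 24 h and 3.75, 1.15, 6.64, 2.45 and 3.37 CPM at 48 h, and the times overlapped. Its rise of 1.53 ± 0.44 (adjusted p = 0.0273) was lost when any of 5 µM 24 h replicates 2, 3 or 4, or 48 h replicates 1, 3 or 5, was left out, with adjusted p from 0.0519 to 0.103. Ihh, the hedgehog ligand that paces hypertrophy, read 37.4 to 54.7 CPM and then 49.6 to 67.8 CPM. Its log2 difference of 0.36 ± 0.12 had an adjusted p of 0.0606, and of 0.00678 without 5 µM 24 h replicate 5, 0.0324 without 24 h replicate 4 and 0.0496 without 48 h replicate 4. It also passed with DESeq2 (0.026), no low-count filter (0.0247), the Y-linked covariate (0.0133) and all 45 libraries in 1 fit (0.0393).

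**Figure D1:**
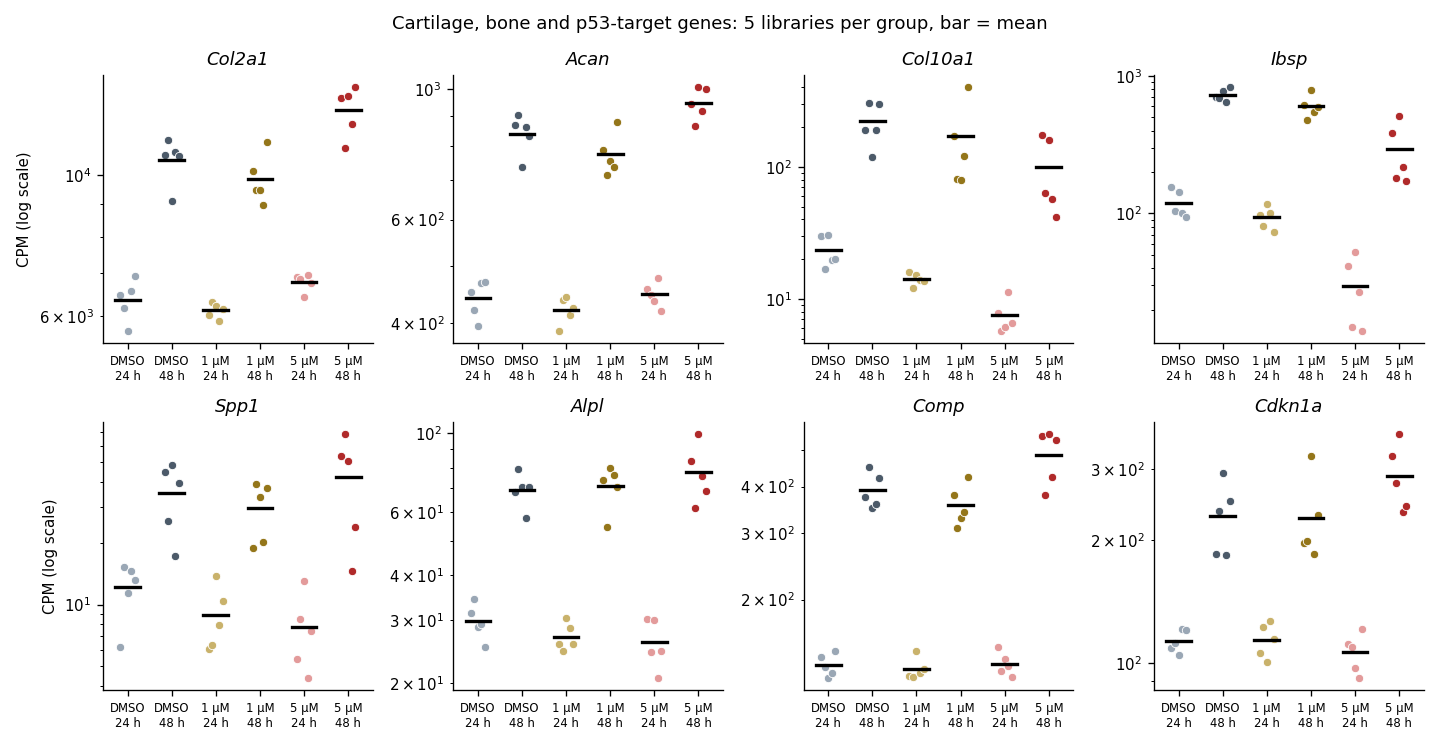
CPM (log axis) of 8 genes in each library at 24 and 48 h in DMSO, 1 µM and 5 µM BPAF; points are libraries (5 per group) and bars are means. In the 5 µM groups the 48 h points lie above the 24 h points in each panel, with Col10a1 between 41.4 and 175 CPM at 48 h against 5.71 to 11.3 CPM at 24 h.

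Bone matrix genes rose too. Among 26 osteoblast and bone matrix genes tested, 19 rose and 1 fell, Msx2, with a median of 0.91 (5 others, among them the osteocalcin gene Bglap, were below the count filter). Ibsp, bone sialoprotein, read 41.7, 15, 52.2, 26.7 and 13.9 CPM at 24 h and 382, 182, 507, 219 and 171 CPM at 48 h. The groups were apart, and replicates 1 and 3 were the highest pair at both times, although the numbers do not link the cultures. The log2 fold change was 3.27 ± 0.37 (adjusted p = 2.4e-05). In DMSO cultures Ibsp rose by 2.60 ± 0.13 from a higher start, 119 ± 28.2 CPM, to 725 ± 73.6 CPM (SD, n = 5). Spp1, osteopontin, went from 5.39, 8.51, 13, 4.36 and 7.43 CPM to 53.9, 68.9, 50.9, 14.7 and 24.1 CPM, 2.43 ± 0.36 on the log2 scale (adjusted p = 0.000279). Even its lowest 48 h library, replicate 4, exceeded all 24 h libraries. Alpl, the phosphatase that supplies phosphate for mineral, rose by 1.56 ± 0.12 and Smpd3, a sphingomyelinase needed for mineralization, by 1.62 ± 0.12. Col1a1, the main bone collagen, rose by 1.18 ± 0.11, from 2751 ± 213 to 6353 ± 1270.0 CPM. Of the osteoblast transcription factors, Sp7 rose by 0.96 ± 0.11 and Runx2 by 0.44 ± 0.10 (adjusted p = 1.78e-05 and 0.00707). Sparc, osteonectin, rose by 0.93 ± 0.08.

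Small leucine-rich proteoglycans, which coat and space collagen fibrils, rose in 11 of 12 members tested, with a median of 0.92. Omd, the osteoblast member osteomodulin, rose by 1.48 ± 0.13, Epyc of growth cartilage by 1.27 ± 0.11 and Bgn by 1.17 ± 0.10. The member that did not rise was Kera, keratocan, at -0.13 ± 0.08 (adjusted p = 0.354), which rose by 0.59 ± 0.09 in DMSO cultures. Of 20 metalloproteinases and their inhibitors, 8 rose and 2 fell. Timp1, an inhibitor, went from 7.73, 5.92, 7.3, 6.67 and 6.37 CPM to 52.2, 22.9, 52.5, 16.3 and 23.2 CPM, a log2 change of 2.27 ± 0.28. Mmp11, stromelysin 3, fell by 0.54 ± 0.07 on the log2 scale.

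Tendon and fibrous tissue genes rose in 17 of 24 members with none falling (median 0.54). Among them were Col14a1 (0.97 ± 0.07), the collagen VI gene Col6a1 (0.78 ± 0.07) and Thbs2, a matrix thrombospondin (1.08 ± 0.11). Scx, the tendon transcription factor, ranged from 60.2 to 99.7 CPM at 24 h and 68.4 to 130.0 CPM at 48 h. Its difference of 0.41 ± 0.17 missed the threshold (adjusted p = 0.127), but passed it without 5 µM 24 h replicate 5 (0.0201), without 48 h replicate 4 (0.0379), with no low-count filter (0.0385) and with all 45 libraries in 1 fit (0.0397). Joint interzone genes went both ways, with 2 of 14 higher (1 in 6 of the 10 fits with a library left out) and 4 lower. Gdf5, the growth factor that marks the future joint, read 68.6 ± 7.28 and 47.5 ± 7.14 CPM, a log2 change of -0.56 ± 0.10. Cd44, the hyaluronan receptor, rose by 1.40 ± 0.12.

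Muscle progenitor genes moved the other way. Of 20 progenitor and determination factors tested, 8 fell and 1 rose, Mef2a, against 5.49% of all genes falling, and the median was -0.25. Without 5 µM 48 h replicate 1 the number that fell was 5. Pax7 (ENSMUSG00000028736, chr4:139737062-139833528 on the minus strand) read 9.15, 12.2, 11.6, 11 and 14 CPM at 24 h and 3.23, 3.83, 4.6, 4 and 3.21 CPM at 48 h. No 48 h library reached the lowest 24 h library, and the log2 fold change was -1.65 ± 0.15 (adjusted p = 4.11e-06). Over the same day DMSO cultures read 20.1, 19.7, 16.3, 17.8 and 14.7 CPM and then 13.9, 14.2, 16.9, 13.9 and 14.8 CPM, a change of -0.27 ± 0.10 that did not pass the test (adjusted p = 0.0987). At 1 µM the change was -0.49 ± 0.13 (adjusted p = 0.011). At 3 h, Pax7 was at 16.6 ± 0.895 CPM at 5 µM and 16.2 ± 1.74 CPM in DMSO (SD, n = 5).

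Myf5, the determination factor switched on earliest in the lineage, went from 5.06, 6.6, 7.36, 7.39 and 6.32 CPM to 3.4, 4.19, 3.83, 2.52 and 3.37 CPM at 5 µM. The times did not overlap, and it fell by 0.94 ± 0.18 on the log2 scale (adjusted p = 0.00174), while in DMSO it read 11.2 ± 0.742 and 11.4 ± 1.84 CPM (SD, n = 5). Its difference between the 5 µM and DMSO changes, -0.96 ± 0.20, missed the threshold (adjusted p = 0.0667). Msc, musculin, a bHLH repressor of the myogenic lineage, read 13.4, 9.88, 11.7, 14.1 and 19.1 CPM and then 1.04, 4.74, 3.19, 3.94 and 3.8 CPM. All 48 h libraries were below all 24 h ones, with replicate 1 the lowest, and the change was -2.06 ± 0.28 (adjusted p = 0.000102). Msc also fell in DMSO, by 0.69 ± 0.12 on the log2 scale, and the difference of -1.36 ± 0.31 did not pass (adjusted p = 0.121). Fgfr4, an FGF receptor of myoblasts, fell by 0.49 ± 0.08 on the log2 scale. The differentiation factors did not move past the test: Myod1 differed by -0.23 ± 0.08 (adjusted p = 0.0885) and Myog by -0.11 ± 0.10 (adjusted p = 0.55). Myod1 was called lower under library-total scaling (adjusted p = 0.0315) and with the Y-linked covariate (0.0129).

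**Figure D2:**
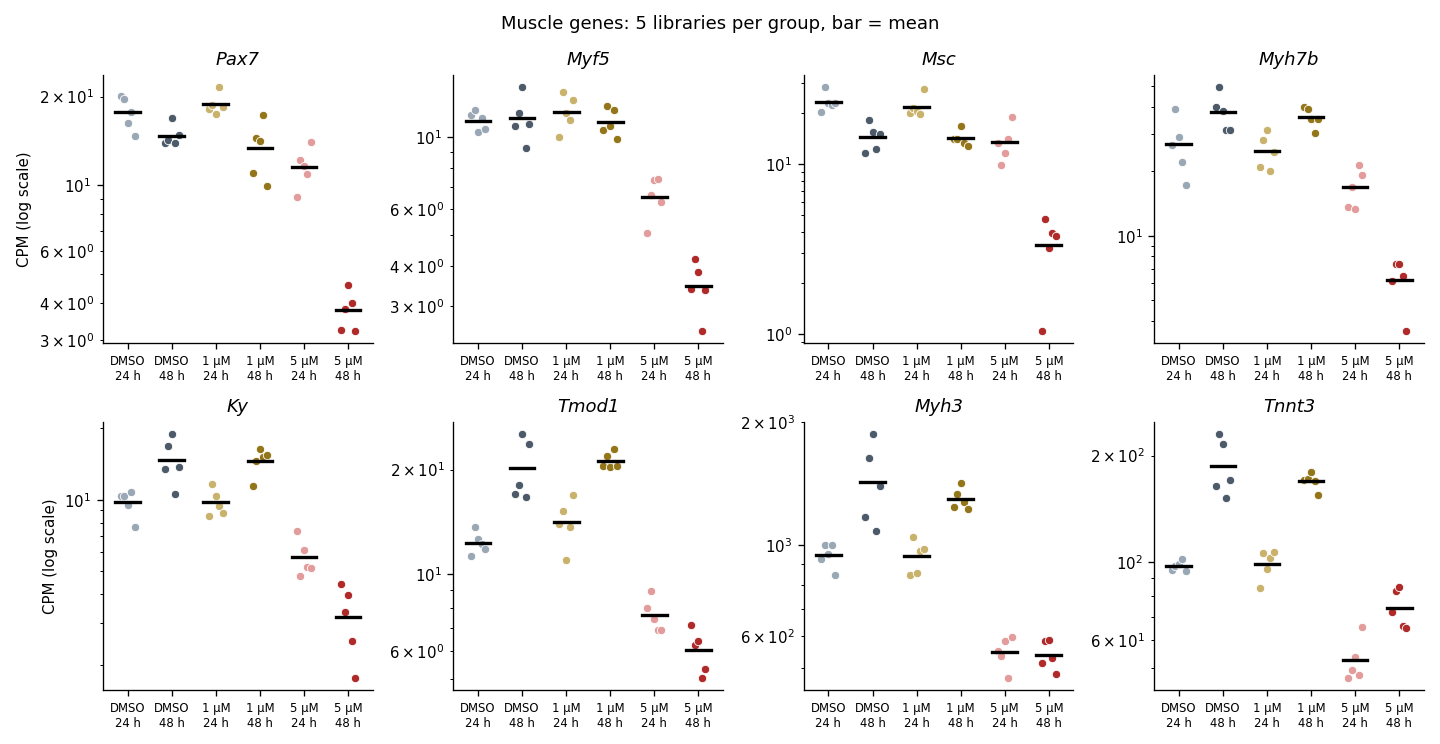
CPM (log axis) of 8 muscle genes in each library at 24 and 48 h in DMSO, 1 µM and 5 µM BPAF; points are libraries (5 per group) and bars are means. Pax7 at 5 µM and 48 h lies at 3.21 to 4.6 CPM, below every other library in that panel, and Myh3 at 5 µM lies at 474 to 597 CPM at both times.

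Sarcomere genes, which encode the contractile filaments, showed little net movement at 5 µM. Of 43 tested, 4 rose and 3 fell (5 fell without 5 µM 24 h replicate 1), with a median of -0.06. In DMSO cultures, where 9.71% of all genes rose and 6.57% fell, 27 of 43 rose and none fell (median 0.50). At 1 µM, where 11.6% rose and 8% fell, 28 of 44 rose (median 0.37). The summed level of 40 of these genes averaged 5291 CPM at 24 h and 5236 CPM at 48 h at 5 µM, against 7652 and 10069 CPM in DMSO. At 3 h the sums had been 3469 and 3336 CPM. Myh3, the embryonic myosin heavy chain, read 552, 538, 585, 474 and 597 CPM at 24 h and 517, 585, 587, 531 and 485 CPM at 48 h. The groups overlapped, and the difference was -0.05 ± 0.07 (adjusted p = 0.729). In DMSO it rose by 0.59 ± 0.12, from 945 ± 65.2 to 1430.0 ± 325 CPM. For Myh3 the difference between the 5 µM and DMSO changes, -0.64 ± 0.15, did not pass the test (adjusted p = 0.137). Acta1, skeletal alpha-actin, read 346, 391, 401, 349.8 and 496 CPM and then 450.2, 523, 571, 422 and 467 CPM, a difference of 0.27 ± 0.10 (adjusted p = 0.0896). It passed without 5 µM 24 h replicate 5 (0.00364), with DESeq2 (0.0491), with no low-count filter (0.0483) and with the Y-linked covariate (0.0261). Fast troponin genes were among the 4 that rose, Tnni2 by 0.69 ± 0.15 and Tnnt3 by 0.46 ± 0.10. Klhl41, a sarcomere assembly factor, fell by 0.45 ± 0.09 on the log2 scale.

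Myh7b, a slow-type myosin heavy chain gene (ENSMUSG00000074652, chr2:155611212-155634307 on the plus strand), fell most in the sarcomere list. It read 13.7, 16.9, 13.4, 21.3 and 19.3 CPM at 24 h and 6.17, 7.41, 7.34, 6.45 and 3.58 CPM at 48 h. The times were apart, and the log2 change was -1.48 ± 0.19 (adjusted p = 6.39e-05). DMSO libraries read 26.4, 39.2, 28.9, 22.1 and 17.3 CPM and then 40, 49.5, 38.3, 31 and 31 CPM, a difference of 0.50 ± 0.18 (adjusted p = 0.069), and at 1 µM it rose by 0.53 ± 0.11. Excitation-contraction coupling and neuromuscular junction genes showed 0 higher and 2 lower of 28, against 11 higher of 28 in DMSO. Over all genes, 8.38% rose at 5 µM and 9.71% in DMSO. None of the 28 was called in the difference between the 5 µM and DMSO changes. Ryr1, the calcium release channel of muscle, read 113 ± 9.65 and 90.4 ± 6.83 CPM, a log2 change of -0.35 ± 0.07. In the creatine and muscle energy list 2 of 15 rose, the adenylate kinase gene Ak1 (0.98 ± 0.12) and the myoglobin gene Mb (0.75 ± 0.18), against 8 of 16 in DMSO, and 4 rose without 5 µM 24 h replicate 5. None of 16 members of that list was called in the difference between the 5 µM and DMSO changes. All 4 muscle lists together held 7 higher and 13 lower of 106 genes tested at 5 µM, 52 and 3 of 109 in DMSO, and 56 and 6 of 110 at 1 µM. Their medians were -0.06, 0.34 and 0.26 on the log2 scale.

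Whether the second day itself differed between treatments was tested over 20 libraries, as the change at 5 µM minus the change in DMSO. The test called 12 of 17315 genes (0.0693%), of which 11 were lower (0.0635%) and 1 was higher (0.00578%), and 806 genes (4.65%) had an unadjusted p under 0.05. DESeq2 called 60. Pax7 was lower by 1.38 log2 units in this difference (-1.38 ± 0.18, adjusted p = 0.00085) and Myh7b by 1.97 (-1.97 ± 0.28, adjusted p = 0.00263). These were the 2 genes called in each of the 20 fits with a library left out and in each of the 9 other settings. The remaining 10 were lost in some of them, and the number called lay between 2 and 17 as single libraries were left out. It was 2 without DMSO 24 h replicate 3 or 5 µM 48 h replicate 5, 3 without DMSO 24 h replicate 2 or 5 µM 24 h replicate 3, 6 without DMSO 24 h replicate 5, DMSO 48 h replicates 3 or 5 or 5 µM 48 h replicate 1, and 7 without 5 µM 24 h replicate 4. It was also 2 when DMSO libraries that held limbs of a single sex were left out, as read from Xist and Y-linked reads.

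Of those 10, Xirp1 and Myh7 are in the 4 muscle lists. Tmod1, which caps thin filaments, differed by -1.07 ± 0.18, Xirp1, an actin-binding Xin repeat protein, by -1.28 ± 0.22 and Myh7, the slow myosin heavy chain, by -0.93 ± 0.18. The muscle protease gene Ky differed by -1.46 ± 0.27 and Csrp3, the muscle LIM protein gene, by -1.62 ± 0.31. Csrp3 was low, at 1.8 to 3.52 CPM and then 1.23 to 3.19 CPM at 5 µM. In DMSO it was at 3.11 to 4.95 CPM and then 7.84 to 11.8 CPM, without overlap. The beta-spectrin gene Sptb differed by -1.17 ± 0.22, the pericyte gene Rgs5 by -1.26 ± 0.22, Kera by -0.72 ± 0.13 and Frem2, a basement membrane protein gene, by -0.80 ± 0.14. At 5 µM itself Tmod1 (-0.365 ± 0.143), Xirp1 (-0.47 ± 0.17), Myh7 (-0.30 ± 0.11), Csrp3 (-0.25 ± 0.28) and Rgs5 (-0.41 ± 0.20) did not pass the test. In DMSO these genes rose, by 0.71, 0.82, 0.63, 1.37 and 0.85. Xirp1 and Myh7 were called lower at 5 µM under library-total scaling (adjusted p = 0.048 and 0.0379). Myh7 also passed with the Y-linked covariate (0.0243) and without 24 h replicate 1 (0.0326). Frem2 fell at 5 µM (-0.66 ± 0.08). Scube1, a secreted protein gene, was the gene whose difference was positive, 0.52 ± 0.10: it did not change at 5 µM by the test (0.03 ± 0.07) and fell by 0.49 ± 0.07 on the log2 scale in DMSO. Adjusted p-values of these 10 lay between 0.0243 and 0.0420. Red cells also make beta-spectrin and Tmod1, and the red cell list had a median of -1.74 at 5 µM and -1.15 in DMSO. Its part in these differences was not tested. Without replicate 5 of both 24 h groups, the libraries with most haemoglobin reads, 4 genes were called: Pax7, Myh7b, Tmod1 and Frem2.

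Against 1 µM cultures the same test called 17 of 17395 genes (0.0977%). In all of them the change, not always the level, was lower at 5 µM. There were 935 genes (5.38%) at an unadjusted p under 0.05, and 54 were called by DESeq2. Leaving out single libraries gave 13 to 25 calls. Of the 17, 7 were also called against DMSO: Pax7 (-1.15 ± 0.20), Myh7b (-2.0 ± 0.23), Myh7 (-0.93 ± 0.14), Tmod1 (-0.95 ± 0.17), Xirp1 (-1.23 ± 0.20), Ky (-1.45 ± 0.25) and Frem2 (-0.89 ± 0.13). Both difference tests use the same 5 µM libraries, so they are not independent. Others were Ryr1 (-0.57 ± 0.09), the slow myosin-binding protein gene Mybpc1 (-0.64 ± 0.11), the M-band genes Myom1 (-0.61 ± 0.10) and Myom2 (-0.62 ± 0.12), Cavin4, a muscle caveolar protein gene (-0.83 ± 0.14), Pdlim3, a Z-disc protein gene (-0.63 ± 0.12), and Abcc9, a subunit of potassium channels (-0.89 ± 0.16). The last of the 17 was the predicted gene Gm28653. At 5 µM itself Cavin4 rose (0.38 ± 0.12, adjusted p = 0.0394), a call lost in most fits with a library left out. Mybpc1 (0.08 ± 0.08), Myom1 (-0.15 ± 0.09), Myom2 (0.22 ± 0.09) and Abcc9 (-0.26 ± 0.13) did not pass the test at 5 µM, while Pdlim3 fell (-0.39 ± 0.10). At 1 µM Cavin4, Mybpc1, Myom1, Myom2 and Abcc9 rose, by 1.22, 0.73, 0.47, 0.85 and 0.63. Myh3 (-0.51 ± 0.10, adjusted p = 0.0285) and nebulin, Neb (-0.60 ± 0.12, adjusted p = 0.0499), were called, but in 12 and in 5 of the 20 fits with a library left out. The call was kept in 11 of those fits for Pdlim3 and in 14 for Myom2. With all 45 libraries in 1 fit, Myh3, Xirp1, Myom1 and Myom2 were not called (adjusted p = 0.169, 0.0955, 0.0711 and 0.0883), and with the Y-linked covariate Myh3 and Neb were not (0.0741 and 0.0845). The 4 muscle lists held 4 of the 12 calls against DMSO and 10 of the 17 against 1 µM. Of their 110 genes tested, 101 had a negative difference against DMSO (median -0.42) and 99 against 1 µM (median -0.27). Among all genes tested in both intervals, the change was higher at 5 µM for 50.6% against DMSO and for 48.9% against 1 µM.

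**Figure D3:**
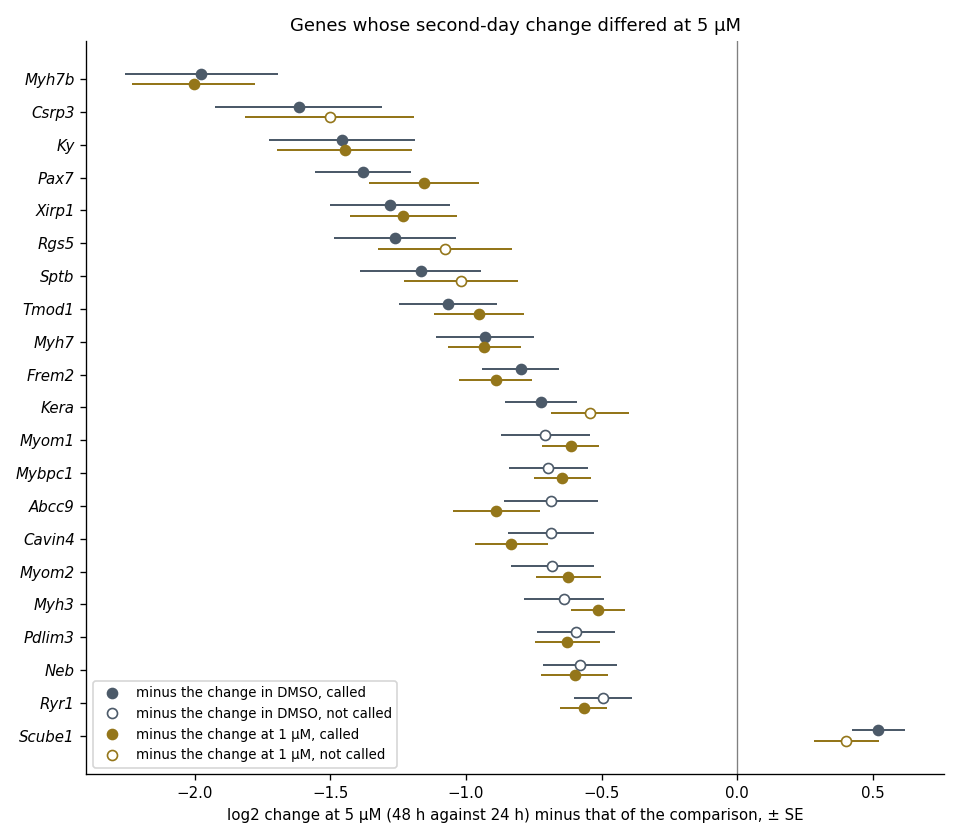
Difference in second-day log2 change, 5 µM minus DMSO (dark grey) and 5 µM minus 1 µM (gold), with bars of 1 SE, for the genes called in either test except Gm28653; filled points were called. Myh7b lies near -2 in both, and Scube1 is the gene to the right of 0.

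Ky and Sptb were the 2 genes called in opposite directions at 5 µM and in DMSO. Ky read 7.41, 4.75, 6.12, 5.21 and 5.16 CPM at 24 h and 4.38, 3.34, 3.96, 2.52 and 1.76 CPM at 48 h at 5 µM, without overlap, a change of -0.87 ± 0.23 (adjusted p = 0.0176, and 0.0555 without 5 µM 24 h replicate 1). In DMSO it rose by 0.59 ± 0.15 and spanned 7.7 to 10.8 CPM and then 10.6 to 19 CPM. Sptb changed by -0.66 ± 0.18 at 5 µM (adjusted p = 0.0214) and by 0.51 ± 0.14 in DMSO. The 5 µM call for Sptb was lost without 24 h replicate 1, 48 h replicate 1 or 48 h replicate 5 (adjusted p from 0.0577 to 0.0651).

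Patterning genes of the early bud moved down. Of 37 non-HOX patterning factors, 18 fell and none rose (median -0.33), and of 21 HOX genes tested, 9 fell and none rose (median -0.46). In DMSO the same lists had 19 of 37 and 9 of 24 falling. Hoxd12, a digit-forming HOX gene, read 124, 122, 124, 123 and 131 CPM at 24 h and 68.2, 88.2, 74.7, 73.9 and 88.4 CPM at 48 h. All 48 h values were below the 24 h values, a change of -0.69 ± 0.08 (adjusted p = 1.58e-05). Hoxa13 (-0.62 ± 0.09) and Hoxd13 (-0.49 ± 0.06), which pattern the hand and wrist region, fell too. Msx1, a homeobox gene of undifferentiated mesenchyme, changed by -0.93 ± 0.10. Lmx1b, which specifies dorsal limb, changed by -0.65 ± 0.07, and Lhx9, of the outgrowing distal bud, by -0.66 ± 0.08. The BMP antagonist Grem1 changed by -0.55 ± 0.11.

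Retinoic acid genes went both ways. Stra6, the receptor that takes retinol into cells, read 16.3, 13.4, 17.3, 19.9 and 17.2 CPM and then 5.02, 6.26, 6.77, 8.39 and 5.51 CPM, a change of -1.43 ± 0.15 (adjusted p = 1.11e-05). Aldh1a2, the enzyme that makes retinoic acid, changed by -0.81 ± 0.14. Rbp4, the secreted retinol carrier, rose by 1.16 ± 0.15. In the whole list 2 of 14 rose and 6 fell.

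In the other signalling lists calls went both ways, except in the Notch list, where the calls were lower only. Over all genes 13.9% were called, and the WNT and Notch lists lay near that share. The BMP list had 5 higher and 4 lower of 26, the FGF list 4 and 2 of 20, the WNT list 2 and 2 of 27, and the Notch list 0 and 2 of 14. The BMP count of 5 was 1 without 5 µM 24 h replicate 1 or 3 or 48 h replicate 1 or 3, and 2 without 24 h replicate 4 or 48 h replicate 4 or 5. The FGF count of 4 was 0 without replicate 1 of either time, and the WNT count of 2 was 0 without 24 h replicate 1 or 4 or 48 h replicate 1 or 3. Wnt5a, a ligand of limb outgrowth, changed by -0.41 ± 0.09 and Sfrp2, a secreted WNT modulator, by -0.42 ± 0.08. The BMP antagonist Nog did not pass (-0.09 ± 0.12, adjusted p = 0.694). In the insulin-like growth factor axis, 4 of 16 rose, among them the ligand Igf1 (0.55 ± 0.13) and the binding protein gene Igfbp7 (1.03 ± 0.13), and the mRNA-binding protein gene Igf2bp1 changed by -0.29 ± 0.06.

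Most p53 target genes rose. Of 28 p53 targets, 22 rose and 0 fell (median 0.81), and in DMSO 21 rose and 1 fell (median 0.59). Cdkn1a, the cyclin-dependent kinase inhibitor p21, read 111, 109, 97.1, 91.7 and 121 CPM at 24 h and 323, 277, 366, 234 and 244 CPM at 48 h. The groups did not overlap, and it rose by 1.42 ± 0.11 (adjusted p = 9.31e-07), against 1.01 ± 0.11 in DMSO, a difference of 0.41 ± 0.17 that did not pass (adjusted p = 0.917). Ccng1, cyclin G1, rose by 1.29 ± 0.11, Phlda3, an inhibitor of AKT, by 1.39 ± 0.13 and Aen, a nuclease gene, by 0.94 ± 0.09.

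The ATF4 list, the amino acid and integrated stress response, had 22 of 30 higher (median 0.58), against 18 in DMSO (median 0.36). Nupr1, a stress-induced nuclear protein gene, went from 6.75, 6.66, 6.77, 7.19 and 8.11 CPM to 29.1, 20.1, 38.8, 19.2 and 28.6 CPM, 1.91 ± 0.17 on the log2 scale. Sesn2, a sestrin that restrains mTORC1, rose by 0.79 ± 0.09, Atf5 by 0.79 ± 0.12 and the mitochondrial carboxykinase gene Pck2 by 0.62 ± 0.08. Of 20 aminoacyl-tRNA synthetases 6 rose (3 without 5 µM replicate 3 of either time), led by Gars (0.42 ± 0.07) and Aars (0.34 ± 0.08). In the endoplasmic reticulum chaperone list 9 of 22 rose, among them Herpud1, of protein degradation from that organelle (0.53 ± 0.10), and the disulfide isomerase gene P4hb (0.28 ± 0.06). Hspa5, the chaperone BiP of that organelle, read 969 to 1069 and 999 to 1294 CPM, and its difference of 0.12 ± 0.06 did not pass (adjusted p = 0.257). NRF2 targets rose in 7 of 22, with the haem oxygenase gene Hmox1 at 0.65 ± 0.10 and the quinone reductase gene Nqo1 at 0.67 ± 0.11. No member of these 5 stress lists (p53, ATF4, tRNA synthetases, chaperones and NRF2) was called in either difference test. Differences against DMSO were positive for 22 of 28 p53, 28 of 30 ATF4, 15 of 20 synthetase, 17 of 22 chaperone and 19 of 22 NRF2 genes. Over all genes, the change was higher at 5 µM than in DMSO for 50.6%. Other lists were one-sided too, with 32 of 38 ribosomal protein and 18 of 21 macrophage genes negative and 21 of 30 G1/S genes positive. Members of a list are not independent, and these counts carry no test.

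Proliferation and housekeeping lists had few calls. Over all genes, 8.38% rose and 5.49% fell at 5 µM. Of 30 G1/S genes 1 rose and of 26 mitotic genes none passed. The proliferation marker Mki67 read 151 to 179 and 151 to 203 CPM (0.05 ± 0.08, adjusted p = 0.746). No nuclear oxidative phosphorylation gene of 35 and 1 of 38 ribosomal protein genes passed, but without 5 µM 24 h replicate 5 these lists had 3 and 8 members higher. Cholesterol synthesis had 5 of 25 lower, including Acat2 (-0.37 ± 0.07) and Mvd (-0.46 ± 0.10), a count that was 2 without 5 µM 48 h replicate 3 and 3 without replicate 1 of either time, 24 h replicate 3 or 48 h replicate 5. Liver X receptor targets had 3 of 15 higher in DMSO, 4 of 15 at 1 µM and 2 of 15 at 5 µM, near the share over all genes. The 2 at 5 µM were the lipid carrier gene Apoe (0.57 ± 0.11) and lipoprotein lipase, Lpl (0.69 ± 0.09). Abcg1, a cholesterol exporter, did not pass (7.13 to 9.77 and 5.03 to 11.8 CPM, adjusted p = 0.969). Glycolysis and hypoxia genes had 0 higher and 2 lower of 29 at 5 µM, 0 and 1 of 30 in DMSO, and 16 and 0 of 30 at 1 µM. At 5 µM, 5 rose without 24 h replicate 4. None of them was called in the difference against 1 µM, where their median was -0.55.

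Red blood cell genes had the lowest median of the 39 lists. Of 10 tested, 8 fell and 1 rose, the transferrin receptor gene Tfrc, with a median of -1.74 (DMSO -1.15). Their summed level ranged from 1088 to 2608 CPM at 24 h and from 512 to 755 CPM at 48 h. Alas2, the haem synthesis enzyme of red cells, read 7.08, 10.7, 10.2, 7.92 and 14.4 CPM and then 2.31, 1.88, 1.92, 1.55 and 3.16 CPM, a change of -2.24 ± 0.23. Slc4a1, the band 3 anion exchanger, changed by -2.51 ± 0.36 from a low level (4.55 ± 1.51 CPM), and the adult beta-globins Hbb-bs and Hbb-bt by -1.93 ± 0.18 and -1.99 ± 0.25. The embryonic globin Hbb-y changed by -1.33 ± 0.17 and Hba-a1 by -1.54 ± 0.22. Globin copies are near-identical, so the division of reads among them is uncertain.

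Markers of other cells moved in several directions, and their part in the results above was not tested. Over all genes, 8.38% rose and 5.49% fell at 5 µM. Macrophage genes rose in 5 of 20 (10 without 5 µM 24 h replicate 5) against 14 of 20 in DMSO. None of 21 macrophage genes was called in either difference test. Their summed level at 5 µM ranged from 205 to 308 CPM at 24 h and from 382 to 477 CPM at 48 h. Gpnmb, a glycoprotein of macrophages, osteoclasts and osteoblasts, rose by 1.54 ± 0.12, the lysosomal marker Cd68 by 0.57 ± 0.09 and lysozyme, Lyz2, by 0.66 ± 0.11. The pan-leukocyte gene Ptprc was at 2.59 ± 0.781 and 3.41 ± 1.22 CPM. Endothelial genes had 1 higher (3 without 5 µM 24 h replicate 5) and 4 lower of 23. Their median was 0.09, and 14 of the 23 had a positive change, up to 0.46. In DMSO 3 of 23 endothelial genes rose and 2 fell, with a median of 0.10. At 5 µM the apelin receptor gene Aplnr changed by -1.38 ± 0.16, the angiopoietin receptor gene Tek by -0.82 ± 0.18 and Prox1, of lymphatic endothelium and other tissues, by -0.76 ± 0.13. The summed endothelial level was 468 to 523 CPM at 24 h and 453 to 549 CPM at 48 h, and the vessel cadherin Cdh5 did not pass (0.15 ± 0.09). Smooth muscle and pericyte genes had 3 higher (5 without 5 µM 24 h replicate 5) and 2 lower of 15. Their median was 0.12, and 9 of the 15 had a positive change, up to 0.73. Among those lower was Acta2, smooth muscle actin, at -0.41 ± 0.09.

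Epidermal genes went both ways. The differentiated-layer keratins Krt10 and Krt1 rose by 2.44 ± 0.47 and 2.41 ± 0.51, while Epcam, an epithelial adhesion gene, changed by -0.69 ± 0.13. Krt10 varied widely, with 40.9, 5.34, 12.1, 30.4 and 11.3 CPM at 24 h and 121, 113, 39.8, 205 and 72.4 CPM at 48 h, so that 24 h replicate 1 lay above 48 h replicate 3. Calm4, a calmodulin-like gene of differentiating keratinocytes, had the largest rise of all named genes, at 0 to 0.264 CPM and then 1.72 to 22.3 CPM (6.75 ± 0.89). The keratin gene Krt6b (4.27 ± 0.54), the stefin gene Stfa3 (3.47 ± 0.40) and the cornified envelope gene Sprr1a (3.15 ± 0.67) were also among the 10 largest rises. The epidermis list in full had 4 higher and 2 lower of 24, where 8.38% of all genes rose and 5.49% fell.

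Schwann cell and nerve genes had 4 higher and 4 lower of 17 (2 lower without 5 µM 48 h replicate 4). Erbb3, the neuregulin receptor of Schwann cells, read 49.9, 53.2, 46.2, 54.8 and 48.3 CPM at 24 h and 31.5, 35.5, 38.6, 36.9 and 30.6 CPM at 48 h, without overlap, a change of -0.57 ± 0.08 (adjusted p = 0.000212). S100b, which is also made by cartilage, rose by 1.12 ± 0.10, and the zinc finger gene Egr2 by 1.71 ± 0.26. In DMSO Erbb3 differed by -0.12 ± 0.08, which did not pass the test, and the difference from the 5 µM change did not pass (adjusted p = 0.213).

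The rest of the largest rises were Arc, a neuronal immediate early gene (3.10 ± 0.37), the serpin Serpina3n (3.03 ± 0.31), the vesicle protein gene Svop (3.02 ± 0.31) and the annexin Anxa8 (3.00 ± 0.26). Arc read 2.07, 1.69, 1.3, 1.25 and 3.14 CPM at 24 h and 30.1, 14.8, 21.5, 6.52 and 11.2 CPM at 48 h, without overlap, and its log2 change in DMSO was 3.02 ± 0.34. Anxa8 read 6.64, 4.12, 3.71, 4.03 and 2.36 CPM and then 32.5, 25.8, 57.2, 26.7 and 27.5 CPM, with 48 h replicate 3 above the others. Hsd3b6, a steroid dehydrogenase, was among the 10 largest falls (-1.50 ± 0.31).

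The 5 µM interval shares no library with the DMSO interval, which called 2677 of 16445 genes (16.3%), or with the 1 µM interval, which called 3236 of 16503 (19.6%). Of 1356 genes that rose at 5 µM and were tested in both, 985 also rose in DMSO, 72.6% of the 5 µM rises and 62.6% of the 1574 DMSO rises. Of 893 that fell, 561 also fell in DMSO, 62.8% and 52.2% of each list. Across 16043 genes the log2 changes at 5 µM and in DMSO had a Pearson r of 0.723 and a Spearman rho of 0.634. Against 1 µM, over 16075 genes, r was 0.694 and rho 0.608. These values are across genes, which are not independent replicates, and carry no test. The 5 µM minus DMSO medians were 0.05 for the chondrocyte list, 0.11 for hypertrophic cartilage and 0.15 for bone, with no member called, and -0.51 for the sarcomere list, against 0.01 over all genes.

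**Figure D4:**
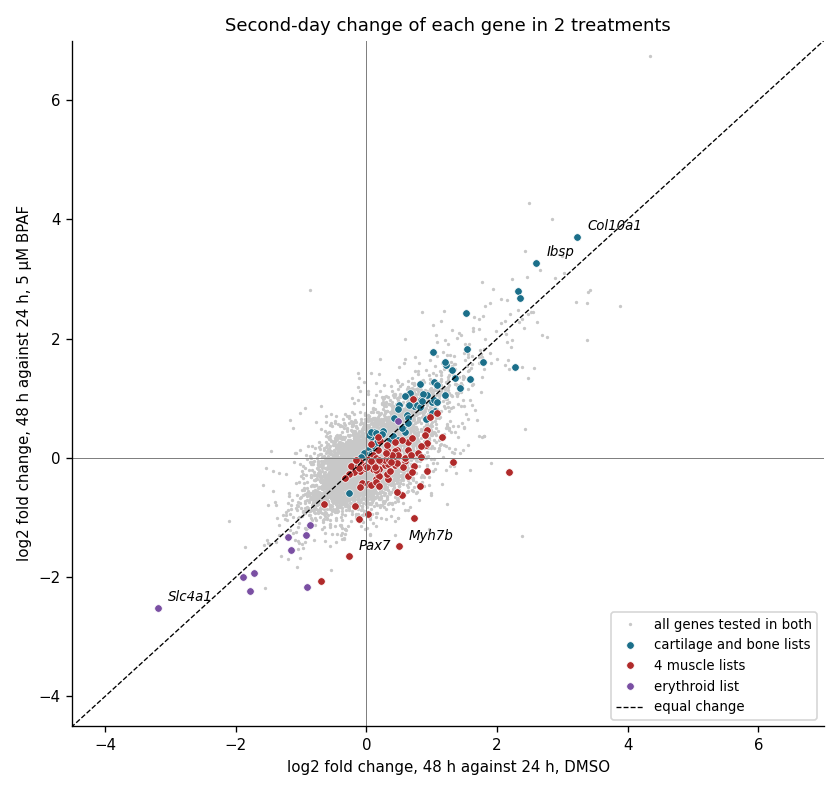
Log2 fold change of 48 h over 24 h in DMSO (horizontal) and at 5 µM BPAF (vertical) for each gene tested in both, with cartilage and bone lists, 4 muscle lists and the erythroid list coloured; the dashed line marks equal change. Col10a1 and Ibsp lie at the upper right, Slc4a1 at the lower left, and Pax7 and Myh7b below the line.

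**Figure D5:**
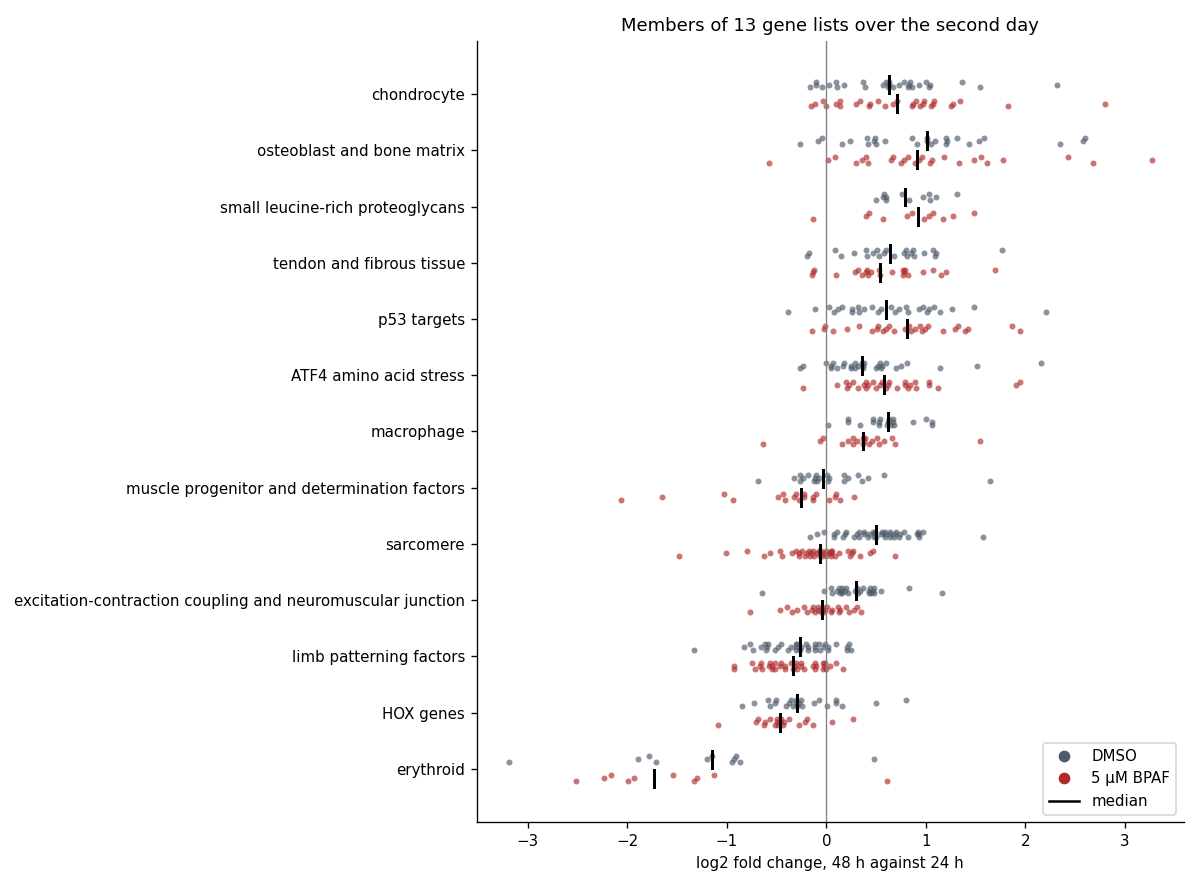
Log2 fold change of 48 h over 24 h for the tested members of 13 gene lists in DMSO (grey) and at 5 µM BPAF (red); each point is a gene and black ticks are medians. The sarcomere median is 0.50 in DMSO and -0.06 at 5 µM, while the chondrocyte medians are 0.63 and 0.71.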

How the data were processed

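Poly-A RNA of forelimb cultures was sequenced in 45 libraries, 5 per dose and time. A library of the 1 µM 3 h group has a treatment label that conflicts with its title, and the title was used. It entered the CPM scaling and the fit of all 45 libraries, but no comparison of 48 h with 24 h. Per the submitters' processing notes, CASAVA 1.8, STAR 2.5, HTSeq 0.6.1, DESeq2 2 and the build mm10 were used; their settings, strand included, are not given in the sources used here. Each of the 9 deposited tables holds, per the file headers, read counts, counts normalized by the authors to a signal with 1 size factor per library, the authors' FPKM, and the authors' log2 fold changes and p-values. Only the deposited counts were used for results. The tables were joined into 35272 genes. A gene absent from a table was read as 0 (11.7% of values).

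Counts were tested with edgeR 4.0.16 under R 4.3.3: TMM scaling, filterByExpr with a minimum count of 10 and total of 15, the quasi-likelihood test, and Benjamini-Hochberg adjustment over all genes. Groups came from the labels. The SE is the log2 fold change divided by the root of F. The fit of each interval used its own 10 libraries, and each difference 20. The procedure was tested on simulated data. Alternatives were DESeq2 1.42.0, other scalings, no filter, a replicate block, a Y-linked covariate, all libraries in 1 fit and leaving out each library. Leaving out single-sex libraries or the libraries richest in haemoglobin was added after the data were seen.

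The members and gene lists were chosen with earlier results of these data known. Named genes were fixed anchors, the 10 largest called rises and falls at a mean of at least 2 CPM, in each list at most 4 called genes by smallest p, and the leading genes of each difference test. Other list members without a call, and Sptb and the remaining genes of the difference tests, were named after their values were seen. Without strand, overlapping genes cannot be told apart. Read totals of 14901842 to 20800285 limit the precision for genes of a few CPM. Some items that the rule names are not reported here.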

Additional observations from a re-analysis of the deposited data

Results flagged for a closer look

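Within the 5 µM groups, 14 of 258 sets of 5 CPM values (129 genes at 2 times) had a library far from the other 4 by Dixon's test (critical value 0.71), and chance gives about 1 in 20. In 24 h replicate 5 these were the globins Hbb-bs (183 CPM, next 105) and Hba-a1 (818, next 391), with Myod1 (138, next 111), Hoxd12 (131, next 124) and Lmx1b (147, next 128). Others at 24 h were Mmp13 in replicate 1 (2.5 CPM, next 1.06), Omd in replicate 3 (10.2, next 7.41), Mybpc1 in replicate 2 (61.8, next 56.5) and, at the low end, Mmp11 in replicate 4 (96.1, next 114). At 48 h, replicate 3 was high for Anxa8 (57.2 CPM, next 32.5), Hbb-bs (42.6, next 28.9) and Hmox1 (138, next 109), and replicate 5 for Sfrp2 (242, next 198). Replicate 1 at 48 h was low for Grem1 (18.9 CPM, next 25.3) and, among the library measures, for the haemoglobin read share (0.0396%, next 0.0553%).

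The second-day change differed between treatments, by edgeR's test of the difference itself, for 28 gene and comparison pairs, beside the predicted gene Gm28653 (-0.66 against 1 µM, adjusted p = 0.0285). Values are log2 differences with Benjamini-Hochberg adjusted p in parentheses. For 5 µM minus DMSO they were Pax7 -1.38 (0.00085), Myh7b -1.97 (0.00263), Tmod1 -1.07 (0.0243), Xirp1 -1.28 (0.0247), Frem2 -0.80 (0.0275), Rgs5 -1.26 (0.0275), Kera -0.72 (0.0322), Ky -1.46 (0.0341), Scube1 0.52 (0.0341), Csrp3 -1.62 (0.0388), Myh7 -0.93 (0.042) and Sptb -1.17 (0.0391). For 5 µM minus 1 µM they were Pax7 -1.15 (0.0109), Myh3 -0.51 (0.0285), Myh7b -2.0 (8.25e-05), Ryr1 -0.57 (0.0045), Tmod1 -0.95 (0.0104), Xirp1 -1.23 (0.00575), Frem2 -0.89 (0.00385), Ky -1.45 (0.0104), Myh7 -0.93 (0.00321), Myom1 -0.61 (0.00971), Mybpc1 -0.64 (0.00663), Neb -0.60 (0.0499), Myom2 -0.62 (0.0275), Pdlim3 -0.63 (0.0266), Abcc9 -0.89 (0.0148) and Cavin4 -0.83 (0.00614).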

How the results depend on the processing

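Called counts of the 5 µM interval stayed within 1.5 times of 2263 under each alternative: DESeq2 gave 2762, the Y-linked covariate 2904, all 45 libraries in 1 fit 3385, and single libraries left out 1710 to 3026. DMSO calls ranged from 2099 to 2675 and 1 µM calls from 2587 to 3235 as single libraries were left out, and DMSO calls were 1247 without its single-sex libraries (fewer samples). Scaled by library totals, the median log2 change of all genes at 5 µM moved from -0.02 to -0.07. For 5 µM minus DMSO, 12 calls became 60 with DESeq2, 27 with no low-count filter, 38 with all 45 libraries in 1 fit, 2 without single-sex libraries, 4 without the 24 h libraries richest in haemoglobin, and 2 to 17 as single libraries were left out. For 5 µM minus 1 µM, 17 calls became 54 with DESeq2, 27 with no filter, and 13 to 25 as single libraries were left out. The causes were not tested. Same-numbered libraries at 24 and 48 h did not vary together at 5 µM (r from -0.05 to 0.09, 0 of 5 best with its own number), so the numbers do not pair them. Between 5 µM and DMSO, same-numbered libraries had r from 0.10 to 0.38 at 24 h and 0.02 to 0.17 at 48 h, with 4 of 5 pairs over 0.1 and 4 of 5 best with their own number at each time. Between 5 µM and 1 µM, r was 0.04 to 0.25 at 24 h (4 of 5 over 0.1) and -0.01 to 0.24 at 48 h (3 of 5). This is a hint of shared variation that the labels do not explain and that not every pair shows. With a replicate block the calls were 2001 at 5 µM, 28 for 5 µM minus DMSO and 27 for 5 µM minus 1 µM. The block joined same-numbered libraries across times as well as doses, and a block within each time was not fitted. Replicates 1 and 2 at 1 µM and 48 h have title numbers that are swapped against their library codes, and the title numbers were used. Under the block, Sptb at 5 µM had an adjusted p of 0.0501 and Ihh of 0.0315. No called value of a named gene reversed direction in these alternatives. Genes of a few CPM, such as Mmp13, are limited by depth.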
